A study of Mus musculus with 4 samples.

Results

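The genes described are 50 regulators and enzymes of the cell division cycle, namely G1 cyclins with their kinases and inhibitors, genes of DNA replication and genes of mitosis, measured in whole skin of mouse embryos at E16.5, where E stands for embryonic day. They were chosen by name. For each gene the brightest probe set by mean over 4 arrays was taken, among those annotated with that gene alone. In this way 48 of the 50 genes were found among 19938 genes on the array, and all 48 passed the filter on dim genes (a mean log2 level of at least 7.32) that left 14953 genes to test. The G1 inhibitor Cdkn1a and the mitotic cyclin Ccnb1 had no probe set with a single annotated symbol and are not analysed here.

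Each genotype, control and Ovol2 BT, was measured on 2 arrays, and each array held total RNA of 2 mice aged E16.5, and the labels call the arrays of a group biological replicates. Ovol2 BT embryos carried TRE-Ovol2-Flag, a Flag-tagged Ovol2 transgene under a tetracycline-responsive element, together with K5-tTA, a tetracycline transactivator under the keratin 5 promoter, which is active in basal keratinocytes. Controls were TRE-Ovol2-Flag or wild type, so a control with K5-tTA alone was not analysed here. The sample descriptions name the single transgenic and the double transgenic genotype but not wild type. The labels give the strain CB6F1 for controls and FVB/N for Ovol2 BT, so genotype and strain cannot be told apart, although littermates are said to have shared cages. Ovol2 encodes a zinc finger protein that regulates transcription in epithelia. The arrays were made to find early differences in skin with excess Ovol2.

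In the G1 phase, D-type cyclins activate Cdk4 and Cdk6 and cyclin E activates Cdk2, which together release E2F transcription factors from the retinoblastoma protein. E2F factors then switch on the genes of DNA synthesis, whereas many mitotic genes are held back until late in the cycle through promoter elements named CHR, often near CCAAT boxes. In the epidermis, cells divide in the basal layer and leave the cycle as they move outward, and hair follicle buds and dermis hold dividing cells as well.

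Levels are log2(intensity + 16), and a difference is the Ovol2 BT mean minus the control mean on that scale, with a standard error (SE) from limma. Ovol2 read 7.59 and 8.29 in control skin against 12.93 and 12.96 in Ovol2 BT skin, as the labels say. The markers of skin were bright on every array: Krt5 lay at 12.88 or above, Krt10 at 13.88 or above and Col1a1 at 13.50 or above. Although all arrays are labelled female, the Y-linked gene Eif2s3y read 10.13 and 10.40 on control array 1 and Ovol2 BT array 1. On control array 2 and Ovol2 BT array 2 it read 6.17 and 4.72, and Kdm5d split the same way. The X-linked gene Xist read 7.07 and 13.16 in control skin against 8.36 and 10.80 in Ovol2 BT skin. It was thus lower on both arrays numbered 1. Ovol2 BT array 2 stood apart, with Pearson's r across genes of 0.924 to 0.935 with the other arrays against 0.976 to 0.983 among those; genes are not independent replicates. Results are therefore also given without that array and, for replication and mitosis genes, within arrays of one replicate number.

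No cell cycle gene passed the test between Ovol2 BT and control skin. Of the 48 genes 0 passed the limma test at an adjusted p under 0.05 (Benjamini-Hochberg over all 14953 genes), against 0.0268% of all genes tested, and 0 of 48 had an unadjusted p under 0.05, against 4.22% of all genes. The lowest unadjusted p was 0.055, and no gene had an adjusted p below 0.907. The median difference was 0.06 over 12 G1 genes, 0.04 over 18 replication genes and -0.15 over 18 mitosis genes, beside 0.03 over all genes tested. The groups did not overlap for 3 of the 48 with Ovol2 BT higher (20.1% of all genes) and for 4 with Ovol2 BT lower (14.1% of all genes). These shares lay below those of all genes. With 2 arrays a group the intervals were wide for some genes and narrow for others, as the plot of differences shows. Because whole skin was measured, fewer dividing cells and less RNA per dividing cell cannot be told apart. Basal keratinocyte markers summed to a log2 level of 15.42 and 15.51 in control skin against 14.86 and 14.93 in Ovol2 BT skin, with a median difference of -0.21 over 11 genes and none at 0, and their part in the cell cycle values was not tested.

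**Figure D1:**
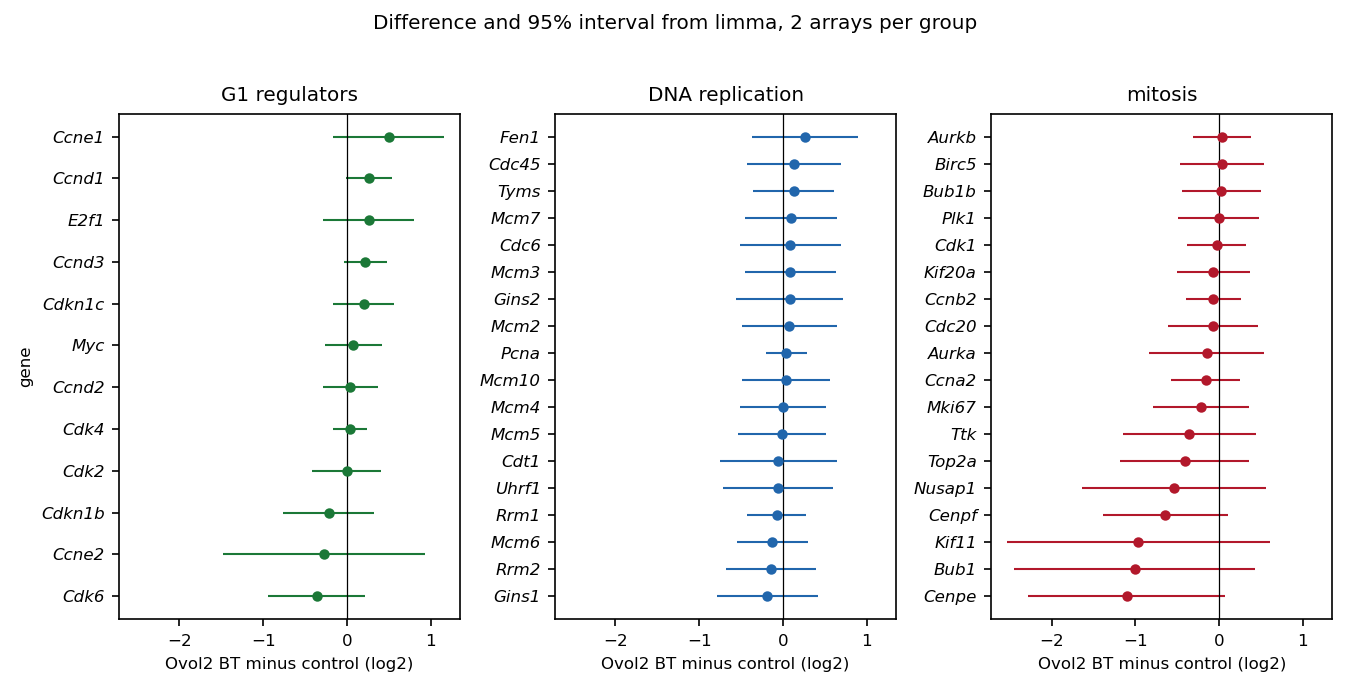
Difference of Ovol2 BT minus control on the log2 scale (horizontal axis) for each of 48 genes, with its 95% interval from limma over 2 arrays per group. Every interval includes 0; that of Cdk4 runs from -0.17 to 0.25 and that of Kif11 from -2.53 to 0.60.

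The G1 genes held the smallest unadjusted p of the set, in the D cyclin Ccnd1. Ccnd1, the cyclin that couples growth signals to Cdk4 and Cdk6, read 12.22 and 12.08 in control skin against 12.37 and 12.46 in Ovol2 BT skin. Both Ovol2 BT arrays lay above both controls, and the difference was 0.27 (SE 0.11, limma adjusted p = 0.907, unadjusted p = 0.055, 95% interval -0.01 to 0.54). Ccnd3, a second partner of these kinases, read 12.35 and 12.27 in control skin against 12.46 and 12.60 in Ovol2 BT skin. Its groups did not overlap either, with a difference of 0.22 (SE 0.10, 95% interval -0.04 to 0.48). Ccnd2 read 12.66 and 12.41 against 12.69 and 12.47, so the spread within each genotype was larger than its difference of 0.04. Without Ovol2 BT array 2 the differences of Ccnd1 and Ccnd3 were 0.22 and 0.15.

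Cyclin E, which drives entry into S phase with Cdk2, is encoded by a pair of genes whose values went opposite ways. Ccne1 read 10.73 and 10.11 in control skin against 10.77 and 11.07 in Ovol2 BT skin. The groups did not overlap, but control array 1 and Ovol2 BT array 1 lay only 0.04 apart, and the difference was 0.50 (SE 0.26, 95% interval -0.16 to 1.16), or 0.35 without Ovol2 BT array 2. Ccne2 read 9.52 and 8.86 in control skin against 9.58 and 8.26 in Ovol2 BT skin. Here array 1 of each genotype was the higher one, the groups overlapped, and the difference of -0.27 (SE 0.48) became 0.39 without Ovol2 BT array 2.

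Among the kinases only Cdk6 had groups apart. Cdk4 read 13.05 and 12.97 against 12.99 and 13.12, a difference of 0.04 with a 95% interval of -0.17 to 0.25, and Cdk2 read 10.82 and 10.72 against 10.70 and 10.83, with a 95% interval of the difference from -0.42 to 0.41. Cdk6 read 10.63 and 10.59 in control skin against 10.51 and 9.98 in Ovol2 BT skin. Its groups did not overlap, yet most of the difference of -0.36 (SE 0.23) came from Ovol2 BT array 2, without which it was -0.10.

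By the brightest probe set, inhibitors of cyclin-dependent kinases and the regulators Myc and E2f1 overlapped between the genotypes. Cdkn1b, which encodes the inhibitor p27 of resting and differentiating cells, read 10.89 and 11.31 in control skin against 11.04 and 10.73 in Ovol2 BT skin. Its difference was -0.22 (SE 0.22). A dimmer Cdkn1b probe set read 7.58 and 7.82 against 7.41 and 7.24, a difference of -0.37 with groups that did not overlap. Cdkn1c, which encodes the inhibitor p57, read 12.28 and 11.97 against 12.25 and 12.40, a difference of 0.20 (SE 0.15) in which control array 2 alone was low. Myc, a transcription factor that promotes growth, read 11.40 and 11.47 against 11.46 and 11.56. The 4 values lay close together, with a difference of 0.08 (SE 0.14, 95% interval -0.26 to 0.42). E2f1, the activator of replication genes, read 10.31 and 10.12 against 10.28 and 10.67. Only Ovol2 BT array 2 was high, and without it the difference of 0.26 (SE 0.22) was 0.06.

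**Figure D2:**
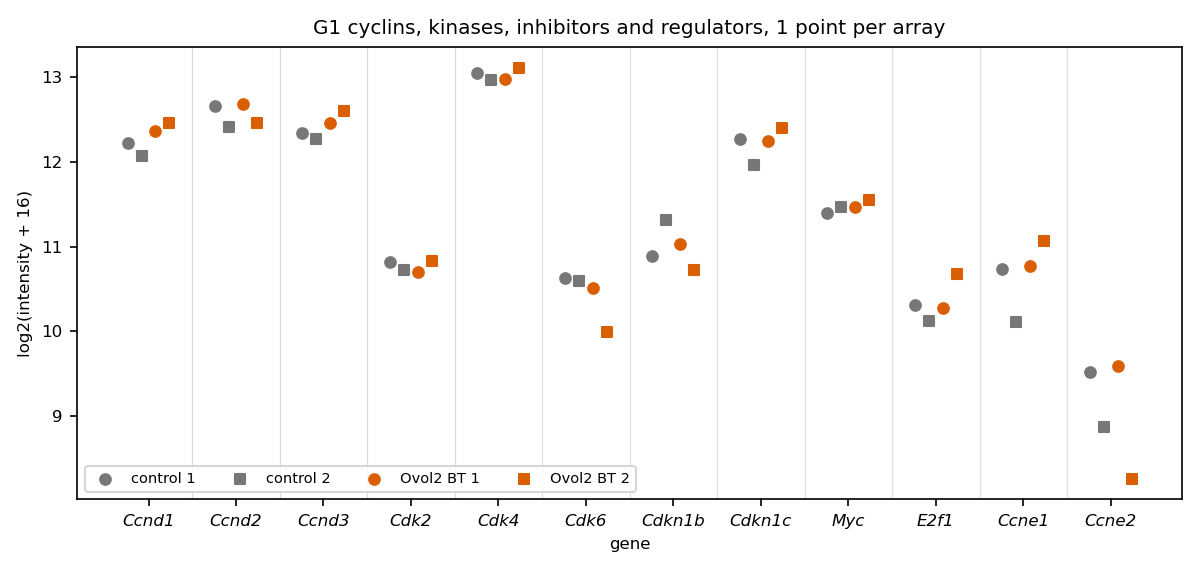
Level on each of the 4 arrays, as log2(intensity + 16) on the vertical axis, for the 12 G1 genes; circles are replicate 1 and squares replicate 2, grey control and orange Ovol2 BT. The groups do not overlap for Ccnd1, Ccnd3 and Ccne1 (Ovol2 BT higher) and Cdk6 (Ovol2 BT lower); levels of different genes are not comparable.

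A promoter is shown for a replication gene, chosen among those given on every array because it held E2F letters before the gene start. RefSeq windows (GRCm38.p6) from 250 bases before to 50 after the gene start were listed for 37 of the 48 genes. They were searched on both strands for E2F letters (TTTCCCGC, TTTGGCGC, TTTCGCGC or TTTGCCGC), for the CHR (TTTGAA) and for CCAAT. E2F letters were found for 7 of 15 replication genes with a window (Mcm3, Mcm5, Mcm6, Mcm7, Cdc6, Cdt1 and Uhrf1), against 2.6% of all 27025 genes with a window. Only 1 of 15 mitosis genes (Cdk1) and 1 of 7 G1 genes (Cdk2) held them. A match is a description of letters and not a site. The 250 bases before the start of Mcm6, a subunit of the replicative helicase (chr1:128359706-128359955, minus strand), are shown 5' to 3' with E2F and CCAAT matches in capitals. Counted back from the base before the start site (-1), E2F letters begin at -110, at -106 on the other strand, overlapping the first, and at -47, and reversed CCAAT letters begin at -57 and -14.
Mcm6: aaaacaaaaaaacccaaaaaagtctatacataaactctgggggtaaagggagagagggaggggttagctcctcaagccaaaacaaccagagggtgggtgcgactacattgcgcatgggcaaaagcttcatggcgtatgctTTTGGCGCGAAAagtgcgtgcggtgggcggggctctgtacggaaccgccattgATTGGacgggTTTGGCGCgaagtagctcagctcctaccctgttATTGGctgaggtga

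No replication gene passed the test between genotypes, whereas nearly all stepped the same way between arrays of one genotype. All 18 read lower on control array 2 than on control array 1 (50.7% of all genes), and the median of control array 2 minus control array 1 was -0.33. On the Ovol2 BT arrays 16 of 18 read higher on array 2 than on array 1 (56.3% of all genes), with a median of 0.33; Pcna and Mcm4 were the exceptions. In all, 16 of 18 were higher on control array 1 and on Ovol2 BT array 2 than on their partner arrays, a pattern of 32.7% of all genes. Within replicate number 1, where Ovol2 BT was compared with control, 1 of 18 was higher (Pcna; 48.1% of all genes) and the median was -0.29. Within replicate number 2, 17 of 18 were higher (all but Pcna; 56.3% of all genes) and the median was 0.39. The difference between genotypes thus turned its sign with the pair of arrays compared.

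Skeletal muscle markers followed the same arrays. All 15 of 15, such as the actin Acta1 and the myosin Myh3, were lower on control array 2 than on control array 1 and higher on Ovol2 BT array 2 than on array 1. Their summed log2 level was 16.03 and 15.25 in control skin against 15.19 and 16.14 in Ovol2 BT skin, the lowest marker value being 8.89, so none was at 0. Their part in the replication values was not tested. The plot of differences within genotypes shows these markers and the replication genes in the same quadrant.

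**Figure D3:**
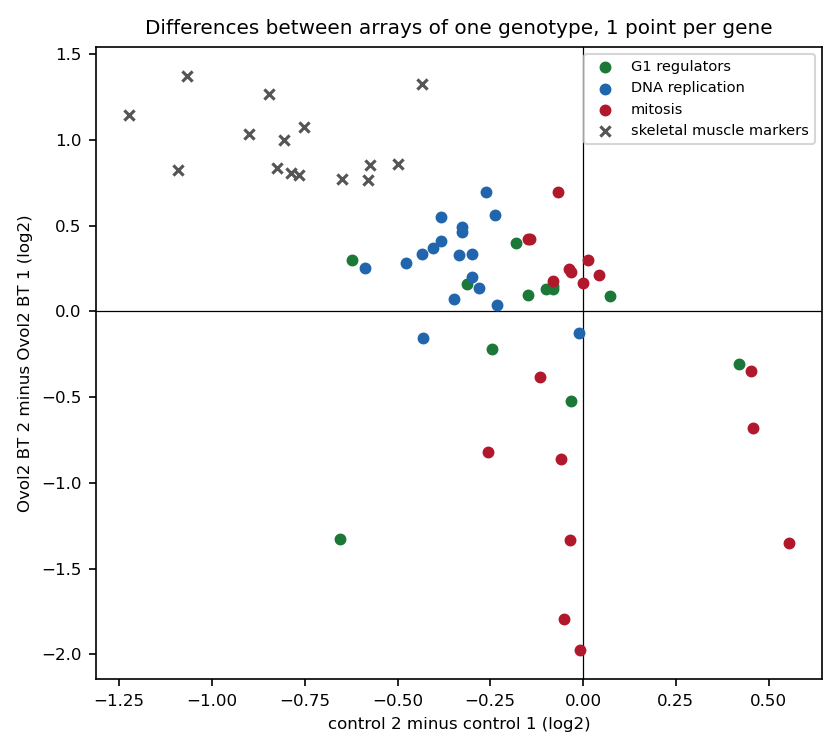
Each point is a gene, placed by control array 2 minus control array 1 (horizontal, log2) and Ovol2 BT array 2 minus array 1 (vertical, log2). Of 18 replication genes 16 lie at the upper left, as do all 15 skeletal muscle markers, whereas mitosis genes spread downward to -1.98.

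The helicase genes Mcm2 to Mcm7, whose products form the ring that unwinds DNA, differed by -0.13 to 0.10. Mcm6 read 11.40 and 11.12 in control skin against 11.07 and 11.20 in Ovol2 BT skin, a difference of -0.13 (SE 0.17, 95% interval -0.55 to 0.30) with overlapping groups. Among factors that load or start the helicase, Cdc45 read 9.95 and 9.65 against 9.77 and 10.10, and its difference was 0.13 (SE 0.22). Gins1, of the complex that travels with the helicase, read 8.28 and 7.70 against 7.68 and 7.93. Control array 1 stood alone at the top, and the difference was -0.19 (SE 0.24). Cdt1, which loads the helicase, had the widest step between the Ovol2 BT arrays among replication genes, 10.28 and 10.98, and differed by -0.06 from controls at 10.82 and 10.56. Gins2 (0.08), Mcm10 (0.04) and Cdc6 (0.09), further initiation factors, and Uhrf1 (-0.06), which maintains DNA methylation at the fork, overlapped as well.

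Enzymes of nucleotide supply and of the fork showed the same overlap. Pcna, the sliding clamp of the polymerases, was the steadiest at 12.44 and 12.43 in control skin against 12.54 and 12.41 in Ovol2 BT skin, with a difference of 0.04 (SE 0.10, 95% interval -0.20 to 0.28), and a second probe set gave 0.05. Fen1, the nuclease that trims Okazaki fragments, read 9.29 and 8.96 against 9.14 and 9.63, the largest difference among replication genes at 0.26 (SE 0.25), which was 0.01 without Ovol2 BT array 2. Rrm2, the regulated subunit of ribonucleotide reductase, read 11.66 and 11.18 against 11.14 and 11.42. Its partner Rrm1 differed by -0.08 and Rrm2 by -0.14 (SE 0.22). Tyms, which makes thymidylate, read 10.87 and 10.52 against 10.79 and 10.86, a difference of 0.13 (SE 0.19). The groups overlapped for each of these enzymes.

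Promoters of mitosis genes were searched for the same letters. CHR letters were found for 11 of 15 mitosis genes with a window (20.2% of all genes), CCAAT for 13 of 15 (41.1% of all genes), and both for 11 of 15 (7.97% of all genes). Among replication genes 3 of 15 held CHR letters and 11 of 15 CCAAT. The 250 bases before the start are shown for the kinase gene Cdk1 (chr10:69352913-69353162, minus strand), the spindle motor gene Kif11 (chr19:37376132-37376381, plus strand) and the proliferation marker Mki67 (chr7:135716380-135716629, minus strand). They came first by alphabet among mitosis genes given on every array with a single window and both CHR and CCAAT letters before the start. Capitals mark CHR, CCAAT and, in Cdk1, E2F letters on either strand. CHR letters begin at -71 and -15 in Cdk1, at -19 on the other strand in Kif11 and at -116 and -98 in Mki67.
Cdk1: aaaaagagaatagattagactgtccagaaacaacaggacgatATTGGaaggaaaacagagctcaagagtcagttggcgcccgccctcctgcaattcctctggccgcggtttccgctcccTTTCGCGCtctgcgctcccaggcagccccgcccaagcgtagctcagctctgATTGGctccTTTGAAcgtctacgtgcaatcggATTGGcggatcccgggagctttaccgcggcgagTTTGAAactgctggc
Kif11: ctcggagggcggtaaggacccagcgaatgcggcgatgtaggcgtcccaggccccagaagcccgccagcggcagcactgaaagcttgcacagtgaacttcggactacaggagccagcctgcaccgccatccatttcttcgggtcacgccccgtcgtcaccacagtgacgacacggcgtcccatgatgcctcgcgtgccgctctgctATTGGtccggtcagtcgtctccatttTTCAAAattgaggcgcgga
Mki67: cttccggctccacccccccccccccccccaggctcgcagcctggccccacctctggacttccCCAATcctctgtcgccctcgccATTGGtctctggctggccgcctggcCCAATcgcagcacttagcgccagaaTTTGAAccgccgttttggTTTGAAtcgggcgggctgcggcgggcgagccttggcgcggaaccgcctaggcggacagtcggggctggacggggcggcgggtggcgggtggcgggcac

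Mitosis genes fell into a part that was low on Ovol2 BT array 2 and a part that was not. Of 18 genes 15 had a negative difference (45.6% of all genes), but no call was made. Within replicate number 1, 3 of 18 were higher in Ovol2 BT skin (48.1% of all genes) and the median was -0.11. Within replicate number 2, 9 of 18 were higher (56.3% of all genes) and the median was -0.14. Without Ovol2 BT array 2 the median difference was -0.11, so it was not low through that array alone. On Ovol2 BT array 2, 7 of 18 read more than 0.5 below the mean of the other 3 arrays (14.6% of all genes), a limit set after the values were seen. They were Kif11, Bub1, Cenpe, Nusap1, Cenpf, Top2a and Ttk, with shifts from -1.96 to -0.78; the next gene was Mki67 at -0.38. The other 11 lay between -0.38 and 0.36. Ovol2 BT array 2 was the lowest of the 4 arrays for 9 of 18 mitosis genes (29.7% of all genes). No replication gene and 2 G1 genes (Ccne2 and Cdk6) passed that limit. Both parts held CHR letters, in 4 of 7 low genes and in 7 of 8 of the others with a window.

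Among the low genes, Kif11, the motor that pushes spindle poles apart, read 10.29 and 10.28 in control skin against 10.31 and 8.34 in Ovol2 BT skin. Ovol2 BT array 1 lay beside the controls and array 2 far below, and the difference of -0.96 (SE 0.63) was 0.02 without array 2. Bub1, a kinase of the spindle checkpoint, read 10.15 and 10.10 against 10.02 and 8.22, a difference of -1.01 (SE 0.57). The kinetochore motor Cenpe read 8.33 and 8.88 against 8.18 and 6.83, the largest difference of the 48 genes at -1.10 (SE 0.47, unadjusted p = 0.060). Groups did not overlap for Cenpe, Bub1 and Cenpf, the last at 8.57 and 9.03 against 8.50 and 7.82 (-0.64, SE 0.30). Without Ovol2 BT array 2 the differences of Cenpe, Bub1 and Cenpf were -0.43, -0.11 and -0.30.

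Nusap1, which bundles spindle microtubules, read 10.59 and 10.56 against 10.70 and 9.37. Top2a, the topoisomerase that untangles chromosomes, read 10.77 and 10.71 against 10.75 and 9.90. By these values array 2 of Ovol2 BT alone was low in both genes. Their differences of -0.54 (SE 0.44) and -0.41 (SE 0.31) became 0.13 and 0.02 without that array. A dimmer Top2a probe set read 7.16 and 7.19 in control skin against 6.78 and 6.51 in Ovol2 BT skin. Its difference was -0.53, and there both Ovol2 BT arrays lay below both controls. Ttk, a checkpoint kinase, differed by -0.36 and by 0.05 without Ovol2 BT array 2.

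For the other mitosis genes the groups overlapped. Cdk1, the kinase that drives entry into mitosis, read 11.47 and 11.47 in control skin against 11.36 and 11.53 in Ovol2 BT skin. Its difference was -0.03 (SE 0.14, 95% interval -0.38 to 0.33), and turned positive when arrays were centred on their medians. Mki67, the proliferation marker known as Ki-67, read 10.84 and 11.29 against 11.03 and 10.68. The control arrays spanned the Ovol2 BT array 1 value, and the difference was -0.22 (SE 0.23). The cyclins Ccnb2 (-0.07) and Ccna2 (-0.16), the kinases Aurka (-0.15), Aurkb (0.03) and Plk1 (-0.01), the checkpoint gene Bub1b (0.03), the survivin gene Birc5 (0.03), the anaphase activator Cdc20 (-0.07) and the cytokinesis motor Kif20a (-0.07) had overlapping groups.

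**Figure D4:**
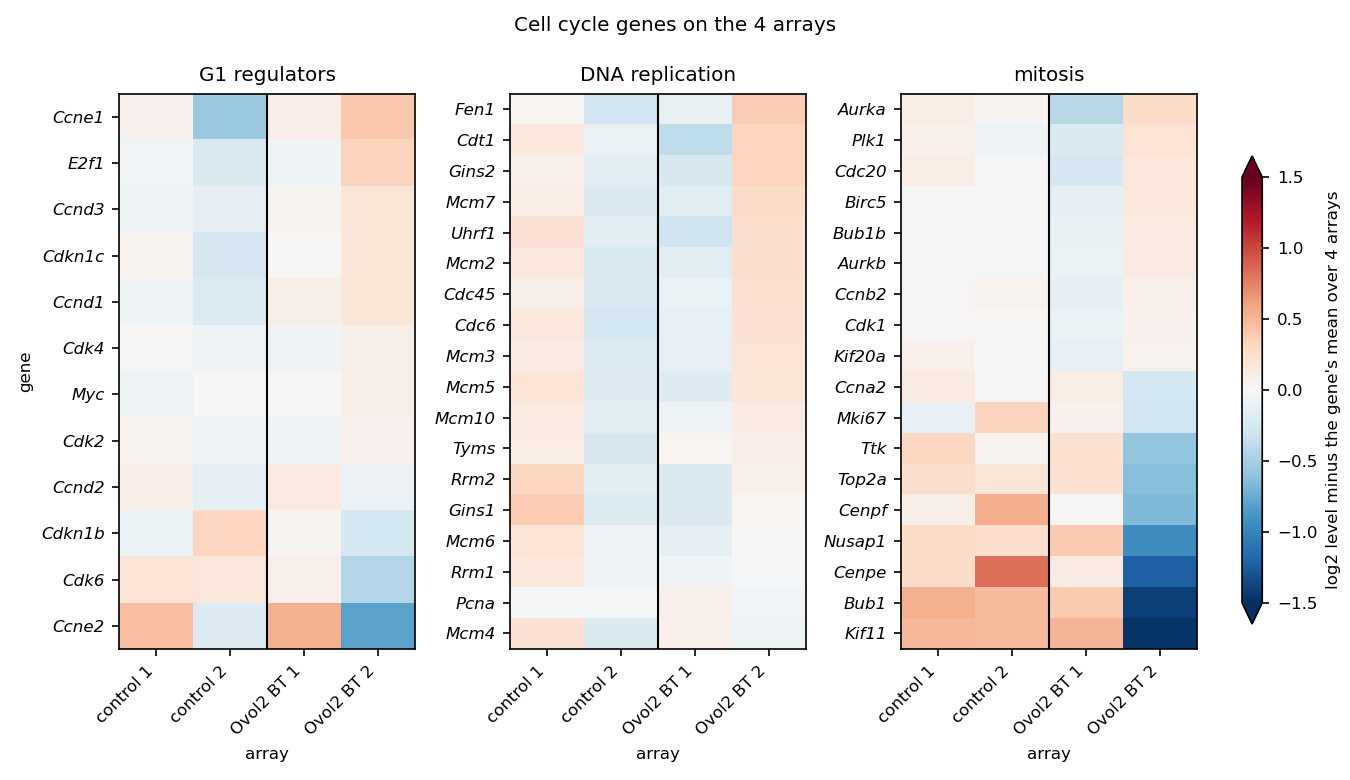
Colour gives each gene's log2 level on an array minus its mean over the 4 arrays, for G1, replication and mitosis genes; rows are ordered by the value on Ovol2 BT array 2. Of 18 replication genes 16 are higher on control array 1 and Ovol2 BT array 2 than on the other array of that genotype (not Pcna and Mcm4). On Ovol2 BT array 2, 7 mitosis genes are low. For Cenpe, Bub1 and Cenpf among them, Ovol2 BT array 1 also lies below both controls.

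The low mitosis genes had long genomic spans. Spans of the 7 genes ran from 31.3 to 61.0 kb (median 37.7 kb), and those of the other 11 from 4.44 to 43.4 kb (median 10.45 kb), by the RefSeq gene table of GRCm38.p6. Among mitosis genes Bub1b was the exception, with 43.4 kb and a shift of 0.18. Of the G1 and replication genes with spans of 31.3 kb or more, Cdk6 was low (190.0 kb, -0.59). Ccnd3 (94.6 kb, 0.24), Tyms (35.1 kb, 0.13) and Cdc45 (31.5 kb, 0.31) were not, and Ccne2 was low (-1.06) at 14.3 kb. Across the 18 mitosis genes Spearman's rho between the shift and the span was -0.70, across 48 genes -0.42 and across 14944 genes tested with a span -0.27, all on the same 4 arrays and with genes that are not independent. Erythroid markers were also highest on this array, with a summed log2 level of 11.97 and 12.88 in control skin against 12.17 and 13.95 in Ovol2 BT skin over 9 genes, none at 0. All 5 erythroid genes that passed the filter were higher on Ovol2 BT array 2 than on array 1 (56.3% of all genes). One of them, Tspo2, read 6.90 and 7.30 in control skin against 7.13 and 10.64 in Ovol2 BT skin. Only Ovol2 BT array 2 lifted its mean past the filter level of 7.32, so its place in this count is not independent of that array. Erythroid markers were not the only ones highest on Ovol2 BT array 2. Myeloid markers summed to 13.96 and 13.79 in control skin against 14.21 and 14.38 in Ovol2 BT skin. Endothelial markers summed to 14.08 and 14.16 against 14.14 and 14.30, and skeletal muscle markers were highest there too. Basal and suprabasal keratinocyte, fibroblast, melanocyte and lymphocyte markers were not. The part of span or of any of these cell types in the low values of mitosis genes was not tested.

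**Figure D5:**
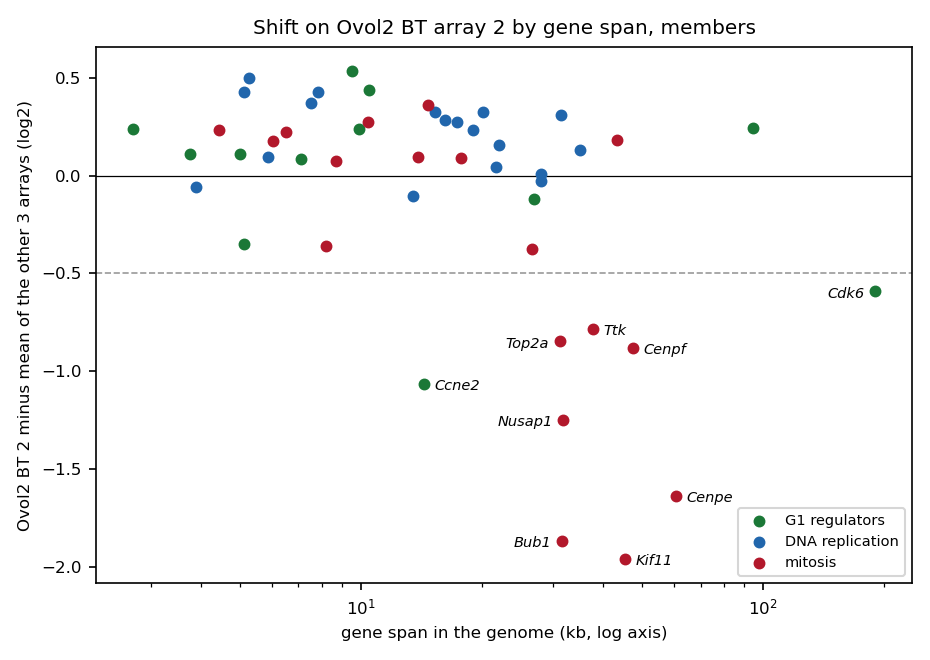
Shift on Ovol2 BT array 2, as its log2 level minus the mean of the other 3 arrays (vertical), against the gene span in kb on a log axis (horizontal) for 48 genes; the dashed line marks -0.5. The 9 labelled genes lie below it, and 7 of them are mitosis genes with spans of 31.3 kb or more.

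How much rests on Ovol2 BT array 2 was seen by leaving out arrays, in fits where the lone array of a group is assumed to vary like the other group. Without Ovol2 BT array 1, so that array 2 stood for the genotype, 9 of 48 genes passed in limma, all lower, against 12.8% of all genes called lower in that fit. They were Cdk6, Ccne2 and the 7 low mitosis genes. These 9 genes had been marked by their low values on the same array 2, so this match is not independent of that choice. In the fit without Ovol2 BT array 2, 0 of 48 passed, against 0.716% of all genes (0.268% called lower). Without control array 1, 0 of 48 passed, against 0.0468% of all genes (0.00669% called lower), and without control array 2, 0 of 48, against 0.0268% (0.00669% called lower). No replication gene passed in any of these fits.

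Further genes of the same pathways, listed by function, gave no call either. Of 164 that passed the filter 0 changed in limma (0.0268% of all genes) and 0 had an unadjusted p under 0.05 (4.22% of all genes). Of these, 117 had negative and 47 positive differences, where 45.6% of all genes had negative ones. Both Ovol2 BT arrays lay below both controls for 47 of the 164 (14.1% of all genes) and above both for 9 (20.1% of all genes). The share that was lower thus exceeded that of all genes, unlike among the genes described above, and its cause was not tested. By list, 7 of 34 regulators, 12 of 54 replication genes and 28 of 76 mitosis genes were lower in this way. The median difference was -0.12 over 34 other G1 and S phase regulators, -0.13 over 54 other replication genes and -0.19 over 76 other mitosis genes. The condensin genes Smc2 and Smc4, which compact chromosomes, lay lowest among the last at -1.19 (SE 0.67) and -1.14 (SE 0.49), and Smc2 read 9.34 and 9.54 against 9.32 and 7.19. Without Ovol2 BT array 2 they differed by -0.12 and -0.41. The highest were Ube2c (0.32) and Ube2s (0.27), which mark proteins for destruction at anaphase, and they differed by 0.17 and 0.09 without Ovol2 BT array 2.

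Among other replication genes, 49 of 54 were lower on control array 2 than on control array 1 (50.7% of all genes), as with the 18 above, but only 23 of 54 were higher on Ovol2 BT array 2 than on array 1. The polymerase gene Pola1 (-0.92, SE 0.51) and the origin gene Orc4 (-0.77, SE 0.54) lay lowest and were -0.13 and 0.06 without Ovol2 BT array 2. Asf1b (0.20), a histone chaperone, and Pola2 (0.15), a partner of Pola1, lay highest, and were -0.08 and -0.02 without that array. Of the regulators, Ccng1 (-0.82, SE 0.55) and Mycn (-0.48, SE 0.22) were lowest and E2f2 (0.64, SE 0.31) and E2f4 (0.36, SE 0.18) highest. Without Ovol2 BT array 2, Ccng1 differed by 0.02, E2f2 by 0.25 and E2f4 by 0.25. Mycn, a relative of Myc, read 8.88 and 8.90 in control skin against 8.18 and 8.65 in Ovol2 BT skin, and its difference was -0.71 without Ovol2 BT array 2 (limma adjusted p = 0.159). Low values on Ovol2 BT array 2, more than 0.5 under the other arrays, were seen for 26 of 76 mitosis, 14 of 54 replication and 6 of 34 regulator genes, against 14.6% of all genes.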

How the data were processed

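Per the submitters' processing notes, the authors ran Affymetrix Expression Console 1.1.1 with PLIER 2.0, and the deposited table holds a linear intensity per probe set and array. Normalisation between arrays is not given in the sources used here, nor is the genome build. Per the labels' protocols, Trizol and column RNA was amplified with random primers. Of 35557 probe sets 21789 had 1 gene symbol in the platform annotation, 1621 several and 12147 none listed; 21698 of the first were updated through the Entrez number to RefSeq (GRCm38.p6). Precision is limited by the number of arrays.

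Values were taken as log2(intensity + 16), which understates folds of dim genes. The brightest probe set stood for a gene (999 genes had several), and genes under the 25th percentile (7.32) were left out. limma 3.58.1 in R 4.3.3 fitted Ovol2 BT minus control over all 14953 genes with an intensity trend (2 residual and 3.44 prior degrees of freedom), two-sided, with Benjamini-Hochberg adjustment over all genes, and the steps were tested on simulated data. Exact permutation of 2 against 2 arrays gives a p of at least 0.333 and was left out.

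The genes and lists were chosen with earlier results of these data known. By rule, values on every array were given for the 5 genes of largest difference and the 5 of smallest p in each role, and for Ccnd1, Cdk1, Cdkn1b, Cdkn1c, Myc, Mki67 and Pcna; other pathway genes were named by the 2 highest and 2 lowest of each list. Values of Ccnd2, Cdk2, Cdk4 and Cdt1 on every array were added after they were seen. Markers of suprabasal keratinocytes (median difference -0.08), dermal fibroblasts (0.02), myeloid (0.46), endothelial (0.12), melanocyte (-0.19) and lymphocyte cells (-0.19) were read from the same fit.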

Additional observations from a re-analysis of the deposited data

How the results depend on the processing

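Counts of changed genes moved with the settings, those of cell cycle genes with 1 array. Over all genes limma called 4 in the reported fit, 10 with median centring, 0 with cyclic loess (687 at an unadjusted p under 0.05), 0 with a variance without trend (599 at an unadjusted p under 0.05), and 4 to 2455 when each array was left out in turn, the highest without Ovol2 BT array 1. The count for the 48 cell cycle genes was 0 in every alternative except that fit (0 to 9 when arrays were left out), and that for the other cell cycle genes was 0 to 42, the highest again without Ovol2 BT array 1. The mitosis median ran from -0.16 to -0.11 when arrays were left out; the replication median turned its sign, with 0.19 without control array 1, -0.12 without control array 2, 0.19 without Ovol2 BT array 1 and -0.11 without Ovol2 BT array 2, and the G1 median ran from 0.02 to 0.12. With the replicate number as a block, 9 genes were called over all genes and 0 of the 48. Over all genes the deviations of same-numbered arrays from their group means had a weak negative correlation (r = -0.172). Y-linked genes were high and Xist was low on both arrays numbered 1, and the labels do not say what a number marks. The crossed pairing, chosen after seeing the data, called 5 genes and 0 of the 48. Of 536 pairs of a named gene and an alternative, 502 kept sign and side of the threshold, 15 gained a call (all without Ovol2 BT array 1) and 19 changed sign with no call, 18 of them when an array was left out; the other was Cdk1 with median centring. Quantile normalisation, offsets of 1 and 64, no filter, a filter at the 50th percentile and the mean of probe sets were also run. With 2 arrays a group, small differences cannot be shown or excluded.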

Other observations

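Low values on Ovol2 BT array 2 were more frequent among genes of long span beyond the cell cycle as well, though most long genes were not low. When the 14944 genes tested with a RefSeq span were ordered into 4 equal parts by span, the share that read more than 0.5 below the other 3 arrays was 4.90% in the shortest part (up to 8.01 kb), 9.48% and 18.7% in the next parts and 25.4% in the longest (51.6 kb and more). The median shift in these parts was 0.16, 0.14, 0.03 and -0.07. On Ovol2 BT array 1, Spearman's rho between the difference from the control mean and the span was -0.07.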
